A study of Mus musculus with 12 samples.

Results

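The expression of 10 genes, out of 40840 with a value in each library, was followed through the RNA-seq of liver immune cells from WT and Casp11-/- mice. They encode surface receptors and secreted proteins of Kupffer cells, the resident macrophages of the liver. The surface proteins are Clec4f, Clec1b, Vsig4, Timd4, Folr2, Adgre1 and Adgre4, and the secreted ones are Cd5l, Fcna and Cxcl13. The genes were taken by name, and they were proposed with the diet differences of these libraries already known. The differences between high-fat diet and chow are therefore given as a description, without a test.

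The study compared WT mice (strain C57BL/6 in the labels, C57BL/6J in the methods) with caspase-11 knockout mice (strain B6.129S4(D2)-Casp4tm1Yuan/J), either on normal chow diet (NCD) or on high-fat diet (HFD). Each genotype was studied on both diets, which gave the groups WT-HFD, WT-NCD, Casp11-/- HFD and Casp11-/- NCD, with 3 libraries each and 12 in all. The methods describe male mice that were 8 to 10 weeks old at the start and fed for 12 weeks. No source used here names a Cre driver or a cell type to which the knockout is limited. The labels call the material hepatic macrophages, while the methods describe an immune cell fraction of a digested, density-separated liver suspension.

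Kupffer cells line the liver sinusoids, where they face blood arriving from the gut and capture bacteria, dying cells and aged red cells. They settle before birth and renew themselves locally, and monocytes that enter an emptied niche take on the same surface genes to different degrees and at different speeds. Clec4f and Vsig4 are near-exclusive to Kupffer cells in the mouse liver, whichever of these origins the cells have. Timd4 is the slowest of these genes to appear on cells of monocyte origin, and Adgre1, which encodes F4/80, is shared with most mouse macrophages.

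The regulatory sequence is shown for the 3 genes with the largest diet differences in WT mice, Cd5l, Vsig4 and Clec4f, and for Cxcl13, the gene with the largest difference between genotypes on HFD. Each window runs 5′ to 3′ on the gene's strand from 250 bases before the transcription start and is 300 bases long, from RefSeq on GRCm38.p6. Capitals mark matches, on either strand, to 4 short motifs of factors known in Kupffer cells. These are TGGGAA for RBPJ, AGGAAGT for PU.1, TGCTGA for the MAF half-site and AGGTCA for the nuclear receptor half-site. The Cd5l window is chr3:87357631-87357930, plus strand, that of Vsig4 is chrX:96293389-96293688, minus strand, that of Clec4f is chr6:83656067-83656366, minus strand, and that of Cxcl13 is chr5:95956689-95956988, plus strand.
Cd5l: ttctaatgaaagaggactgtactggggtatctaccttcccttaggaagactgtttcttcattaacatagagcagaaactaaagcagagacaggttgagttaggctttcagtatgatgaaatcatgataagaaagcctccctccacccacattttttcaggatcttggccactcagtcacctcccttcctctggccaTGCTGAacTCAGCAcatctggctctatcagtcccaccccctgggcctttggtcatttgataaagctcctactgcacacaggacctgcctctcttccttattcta
Vsig4: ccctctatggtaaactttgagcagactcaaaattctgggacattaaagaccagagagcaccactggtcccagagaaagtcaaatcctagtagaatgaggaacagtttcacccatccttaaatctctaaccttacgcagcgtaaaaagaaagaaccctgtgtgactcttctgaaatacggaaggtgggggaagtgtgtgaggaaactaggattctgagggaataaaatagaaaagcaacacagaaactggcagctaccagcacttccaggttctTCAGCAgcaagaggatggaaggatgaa
Clec4f: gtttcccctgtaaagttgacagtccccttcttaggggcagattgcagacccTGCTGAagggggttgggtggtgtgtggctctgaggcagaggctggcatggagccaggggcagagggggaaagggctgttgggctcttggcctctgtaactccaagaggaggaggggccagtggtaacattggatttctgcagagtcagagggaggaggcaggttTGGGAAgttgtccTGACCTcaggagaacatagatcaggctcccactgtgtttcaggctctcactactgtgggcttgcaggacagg
Cxcl13: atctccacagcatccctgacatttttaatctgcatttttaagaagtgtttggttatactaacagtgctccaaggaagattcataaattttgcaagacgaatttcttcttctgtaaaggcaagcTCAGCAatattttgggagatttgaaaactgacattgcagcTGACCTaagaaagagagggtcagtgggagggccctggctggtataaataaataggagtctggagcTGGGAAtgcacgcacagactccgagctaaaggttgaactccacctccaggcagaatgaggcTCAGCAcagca

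In these 4 windows no match overlapped another. TGCTGA or its reverse complement stood in all 4, and it occurred in 8 of the 10 windows listed for 9 of the genes, against 19.5% of all 32851 promoter windows. The 2 windows without it were those of Clec1b and Adgre4. TGGGAA stood in 3 of the 10 windows, against 25.6% of all promoters, AGGTCA in 3 of 10, against 16.3%, and AGGAAGT in 3 of 10, against 9.35%. The AGGAAGT matches were in Fcna, Adgre4 and one of the 2 Folr2 windows. These matches describe the letters of the windows and show no binding.

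Levels are given as TPM, in which each gene's reads are divided by its length and by the total of its library. The lowest deposited value in every library was 1.01 TPM, a floor. Of the 120 values of the 10 genes, 1 was at this floor, and all 10 genes passed the filter of a value above the floor in at least 3 libraries. The TPM of Casp4, the gene of caspase-11, was 12.1, 15.6 and 8.94 for WT-NCD (replicates 1 to 3, as in all such lists) and 7.09, 5.60 and 11.4 for WT-HFD. For the libraries labelled Casp11-/- NCD it was 4.93, 2.56 and 15.2, and for those labelled Casp11-/- HFD it was 2.78, 8.68 and 4.73. The ranges overlapped, so genotypes are given as labelled. Casp11-/- HFD replicate 2 was the library at 8.68 TPM. Its column header in the deposited data has a genotype code spelled differently from that of the other 5 Casp11-/- libraries. For that reason the limma differences of the 10 genes between genotypes on HFD are also given without this library. The shares and the overlap counts given below include it. WT-NCD replicate 3 stood apart, with values over the floor for 39677 genes, while the other 11 libraries had 12940 to 18775 such genes, and its Ptprc (the leukocyte marker CD45) was at 2.27 TPM against 84.6 to 523 TPM. The macrophage markers Csf1r and Cd68 were at 17.1 to 242 and 18.1 to 223 TPM in those 11 libraries, and Alb, the hepatocyte albumin gene, was at 4445 to 18318 TPM. In WT-NCD replicate 3 Alb was at 6.46 TPM. The median r of that library with the others was -0.23 on log2(TPM + 1), against 0.89 to 0.95 for the other 11. Protein-coding genes held 15.7% to 42.4% of the TPM of the 11 libraries, so the differences were also computed after giving the protein-coding genes of every library the same total. In a bulk fraction, fewer cells of a type and less RNA per cell cannot be told apart.

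Differences were fitted with limma on log2(TPM + 1) over 19498 genes, and they understate the change of low genes. HFD levels of the 10 genes were above NCD levels in most libraries of both genotypes. In WT mice 10 of 10 differences between HFD and NCD were positive, with a median of 2.0 on the log2 scale, while the median of all genes tested was -0.51. In the libraries labelled Casp11-/- 9 of 10 were positive, with a median of 1.94 against -0.43 for all genes. The all-gene medians depended on the setting. Without WT-NCD replicate 3 the WT one was -0.27, beside a median of 2.09 for the 10 genes. With the protein-coding genes of every library given the same total, the all-gene medians were 0.0093 in WT and -0.21 in Casp11-/- libraries. The medians of 2.0 and 1.94 for the 10 genes are not on that rescaled basis. Every WT-HFD library lay above every WT-NCD library for 5 of the 10 genes, Clec4f, Vsig4, Adgre1, Adgre4 and Cd5l, against 1.98% of all genes tested. Without WT-NCD replicate 3 this held for 9 of 10, all but Clec1b, against 14.3% of all genes. In the libraries labelled Casp11-/- it held for 8 of 10, all but Adgre1 and Adgre4, against 2.08%. The genes had been chosen from these contrasts, so nothing is read from these shares. The 2 diet comparisons use separate libraries, but each shares its libraries with the genotype comparisons given further on.

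**Figure D1:**
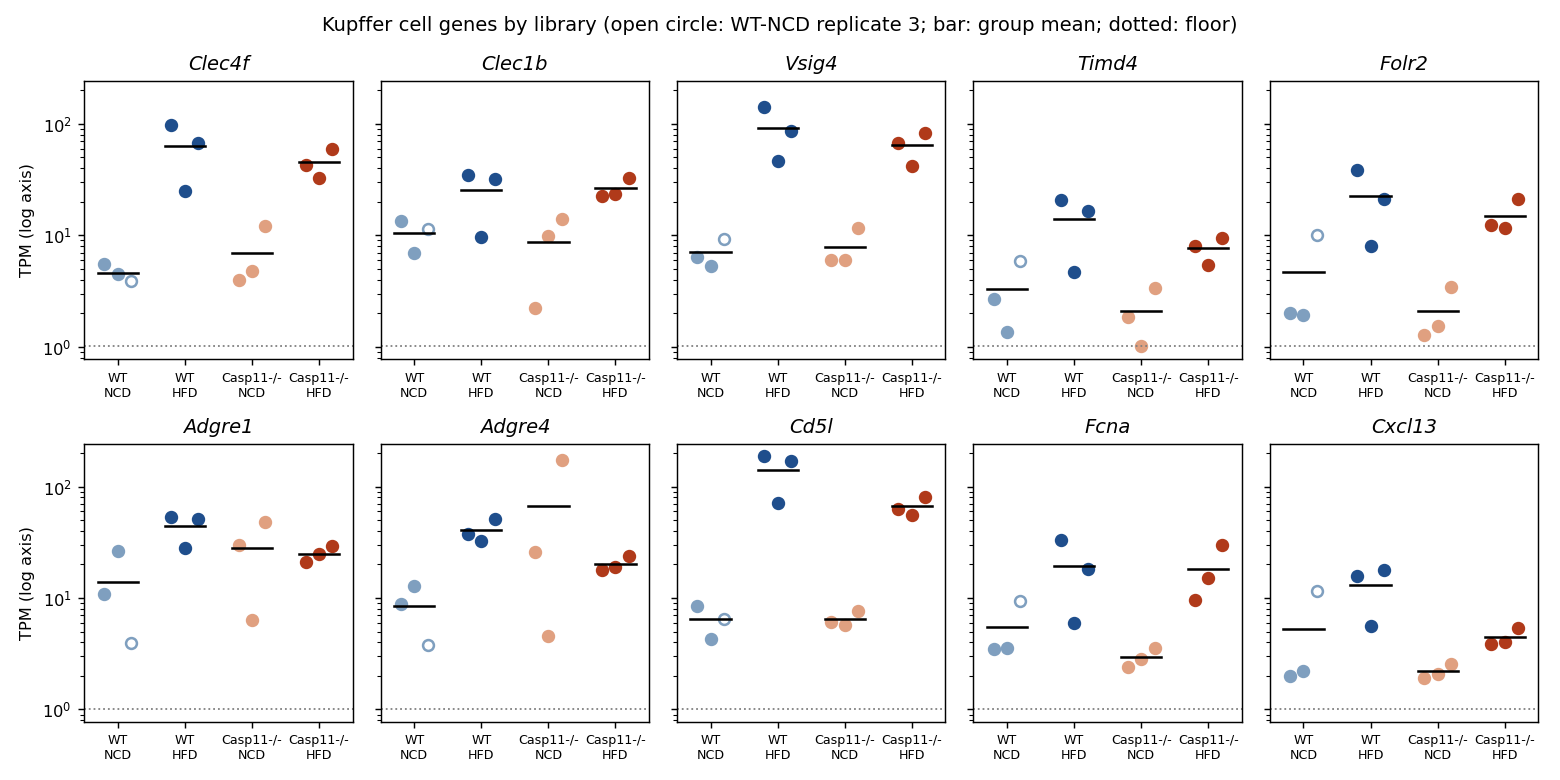
TPM (log axis) of each of the 10 genes in the 12 libraries, grouped by genotype and diet, with bars at the group means and a dotted line at the floor of 1.01 TPM. For Clec4f, Vsig4 and Cd5l all 6 HFD points lie above all 6 NCD points, whereas the Adgre1 and Adgre4 points of the Casp11-/- NCD group spread across the HFD points.

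Clec4f and Clec1b encode C-type lectin receptors. Clec4f (chromosome 6, 83644542 to 83656116) binds galactose-type glycans and is the classic mouse Kupffer cell marker. Its TPM was 5.48, 4.48 and 3.90 in WT-NCD and 98.3, 24.8 and 67.5 in WT-HFD, whereas it was 4.01, 4.82 and 12.1 in Casp11-/- NCD and 42.6, 32.9 and 59.5 in Casp11-/- HFD. All 6 HFD libraries exceeded all 6 NCD libraries. The log2 difference between HFD and NCD was 3.33 (SE 0.553) in WT and 2.62 (SE 0.553) in Casp11-/- libraries. The 2 HFD means, 63.5 ± 36.9 and 45.0 ± 13.5 TPM (SD, n = 3 each), differed by less than their spread, and so did the NCD means of 4.62 ± 0.798 and 6.99 ± 4.48 TPM (SD, n = 3 each).

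Clec1b (chromosome 6, 129397297 to 129405413) encodes CLEC-2, the podoplanin receptor of platelets, which is also present on Kupffer cells. Its TPM was 13.3, 6.90 and 11.4 in WT-NCD and 34.6, 9.59 and 32.0 in WT-HFD. It was 2.24, 9.77 and 14.1 in Casp11-/- NCD and 22.7, 23.3 and 32.9 in Casp11-/- HFD. WT-HFD replicate 2 lay inside the WT-NCD range, and the lowest value of all was that of Casp11-/- NCD replicate 1. The log2 differences of 1.05 (SE 0.637) in WT and 1.74 (SE 0.637) in Casp11-/- libraries ran in the order shared by Folr2 and Fcna, with the larger value in the libraries labelled Casp11-/-, while the other 7 genes had the larger value in WT, and Folr2 joined these 7 without WT-NCD replicate 3.

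Of the 10 genes, Clec1b had the highest correlation with the genes of sinusoidal endothelial cells. Over the 11 libraries without WT-NCD replicate 3, its Pearson r with the mean of 12 sinusoidal endothelial genes was 0.95, against 0.80 with the mean of the other 9 Kupffer cell genes. For those 9, r with the endothelial genes was 0.11 to 0.78. The summed TPM of the endothelial genes, which include Stab2, Lyve1 and Clec4g, was 198 in Casp11-/- NCD replicate 1, the lowest of the 11, where Clec1b was lowest as well. These libraries share diet groups and unequal protein-coding shares. On rescaled protein-coding genes the r values of Clec1b were 0.96 and 0.86. The part of endothelial RNA in the Clec1b level was not tested.

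Vsig4 and Timd4 encode receptors for targets that Kupffer cells engulf. Vsig4 (chromosome X, 96247201 to 96293438) encodes CRIg, which binds complement C3 fragments on bacteria. It was at 6.41, 5.34 and 9.28 TPM on NCD and 143, 46.6 and 86.4 TPM on HFD in WT mice, and at 5.96, 6.06 and 11.7 TPM in Casp11-/- NCD and 68.0, 41.6 and 82.4 TPM in Casp11-/- HFD. The lowest HFD library was 41.6 TPM and the highest NCD library 11.7 TPM. Its log2 difference was 3.42 (SE 0.494) in WT and 2.87 (SE 0.494) in Casp11-/- libraries. Vsig4 and Clec4f kept a narrow ratio of TPM, 0.961 to 1.88 in the 11 libraries, a ratio chosen after the values were seen.

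Timd4 (chromosome 11, 46810786 to 46844333) encodes TIM-4, which binds phosphatidylserine on dying cells. Its TPM was 2.68, 1.36 and 5.83 in WT-NCD and 20.8, 4.72 and 16.7 in WT-HFD. It was 1.86, 1.01 (the floor) and 3.35 in Casp11-/- NCD and 8.02, 5.44 and 9.45 in Casp11-/- HFD. WT-NCD replicate 3, the library that stood apart, was above WT-HFD replicate 2. The log2 difference was 1.74 (SE 0.604) in WT, or 2.14 (SE 0.590) without WT-NCD replicate 3, and 1.54 (SE 0.604) in Casp11-/- libraries. The ratio of Timd4 to Clec4f was 0.190 to 0.247 in WT-HFD and 0.159 to 0.188 in Casp11-/- HFD, again a ratio chosen after its values were seen, and 0.209 to 0.488 in the 5 NCD libraries other than WT-NCD replicate 3.

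Folr2 (chromosome 7, 101839988 to 101857190) encodes folate receptor beta, a surface protein of tissue-resident macrophages. Its TPM was 2.01, 1.94 and 10 in WT-NCD and 38.7, 7.94 and 21.1 in WT-HFD, whereas it was 1.27, 1.55 and 3.41 in Casp11-/- NCD and 12.3, 11.7 and 21.0 in Casp11-/- HFD. Apart from WT-NCD replicate 3, every NCD library was below every HFD library. The log2 difference in WT was 2.11 (SE 0.665) with all libraries and 2.74 (SE 0.590) without that library, and it was 2.40 (SE 0.665) in Casp11-/- libraries.

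Adgre1 and Adgre4 encode adhesion G protein-coupled receptors and lie on the same chromosome, Adgre4 at 17:55749984 to 55853662 and Adgre1 at 17:57358581 to 57483529. Adgre1 had 10.9, 26.5 and 3.97 TPM on NCD and 52.9, 28.0 and 51.3 TPM on HFD in WT mice. In the libraries labelled Casp11-/- it had 29.8, 6.29 and 48.1 TPM on NCD and 21.1, 24.7 and 29.3 TPM on HFD. The HFD values of these libraries lay inside the range of their NCD values. The log2 difference was 1.88 (SE 0.753) in WT and 0.22 (SE 0.753) in Casp11-/- libraries, and the second was -0.59 without Casp11-/- NCD replicate 2 and 0.79 without Casp11-/- NCD replicate 3.

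Adgre4 had 8.82, 12.7 and 3.81 TPM on NCD and 37.8, 32.2 and 51.1 TPM on HFD in WT mice, groups that did not overlap. It had 25.7, 4.60 and 172 TPM in Casp11-/- NCD and 17.8, 19.0 and 24.0 TPM in Casp11-/- HFD. Its log2 difference was 2.23 (SE 0.966) in WT and -0.49 (SE 0.966) in Casp11-/- libraries, and the second turned to 0.08 (SE 0.710) on rescaled protein-coding genes without WT-NCD replicate 3. The value of 172 TPM was that of Casp11-/- NCD replicate 3, which also held the highest Csf1r (242 TPM) and Cd68 (223 TPM), while its Clec4f was 12.1 TPM. Without that library the Adgre4 difference in Casp11-/- libraries was 0.79.

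Adgre1 and Adgre4 followed each other more closely than they followed most of the other Kupffer cell genes. Over the 11 libraries their r with each other was 0.86, and their r with Clec4f, Vsig4, Timd4, Folr2, Cd5l, Fcna and Cxcl13 was 0.24 to 0.64. Those 7 genes had r of 0.82 to 0.99 among themselves. With the mean of 17 pan-macrophage genes such as Csf1r, Cd68 and Lyz2, r was 0.85 for Adgre1 and 0.73 for Adgre4 and 0.50 to 0.66 for the other 8 genes. On rescaled protein-coding genes these values were 0.88 for Adgre1, 0.70 for Adgre4 and 0.78 to 0.87 for the other 8. These correlations run across libraries of both diets and are a description.

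Cd5l, Fcna and Cxcl13 encode secreted proteins. Cd5l (chromosome 3, 87357881 to 87371074), a scavenger receptor family protein also called AIM, circulates bound to IgM and keeps macrophages alive. Its TPM was 8.53, 4.28 and 6.53 in WT-NCD and 186, 70.6 and 169 in WT-HFD, whereas it was 6.11, 5.68 and 7.57 in Casp11-/- NCD and 63.5, 55.3 and 81.3 in Casp11-/- HFD. Its log2 difference between diets, 4.18 (SE 0.446) in WT and 3.17 (SE 0.446) in Casp11-/- libraries, was the highest of the 10 genes in both genotypes. The 2 NCD means, 6.45 ± 2.13 and 6.45 ± 0.995 TPM (SD, n = 3 each), differed by far less than their spread, while the HFD means were 142 ± 62.4 and 66.7 ± 13.3 TPM (SD, n = 3 each).

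Fcna (chromosome 2, 25624665 to 25635440) encodes ficolin A, a soluble lectin that starts the lectin pathway of complement. Its TPM was 3.46, 3.52 and 9.34 in WT-NCD and 33.2, 6.01 and 18.3 in WT-HFD, whereas it was 2.41, 2.85 and 3.55 in Casp11-/- NCD and 9.54, 15.0 and 29.6 in Casp11-/- HFD. WT-HFD replicate 2 was below WT-NCD replicate 3. The log2 difference was 1.49 (SE 0.629) in WT, 1.89 (SE 0.607) without WT-NCD replicate 3, and 2.14 (SE 0.629) in Casp11-/- libraries.

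Cxcl13 (chromosome 5, 95956939 to 95961068) encodes a chemokine that draws B cells through the receptor CXCR5. Its TPM was 1.99, 2.23 and 11.5 in WT-NCD and 15.8, 5.64 and 17.8 in WT-HFD. It was 1.91, 2.10 and 2.57 in Casp11-/- NCD and 3.90, 4.04 and 5.34 in Casp11-/- HFD. Each WT-HFD library was above each Casp11-/- HFD library, and outside WT-NCD replicate 3 the NCD values of both genotypes lay between 1.91 and 2.57 TPM. Its log2 difference between diets was 1.38 (SE 0.603) in WT, 2.04 (SE 0.532) without WT-NCD replicate 3, and 0.76 (SE 0.603) in Casp11-/- libraries.

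**Figure D2:**
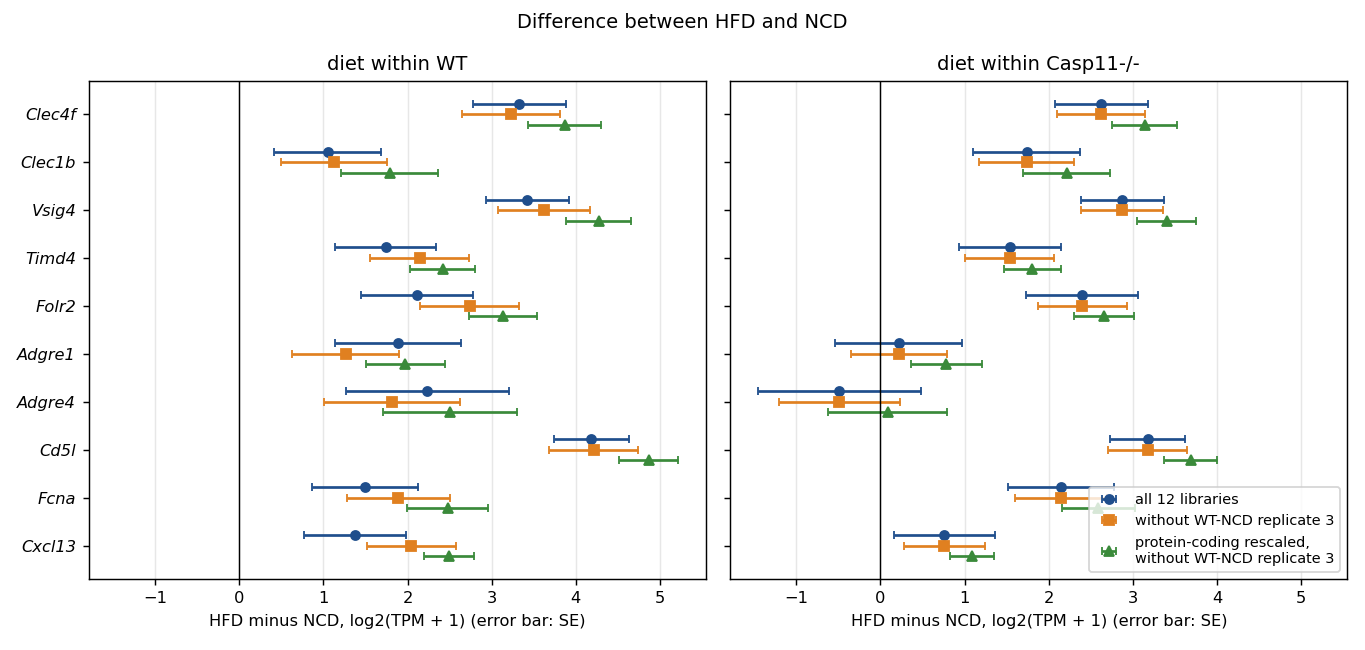
Difference between HFD and NCD in log2(TPM + 1) for each gene (error bars: SE), in WT (left) and Casp11-/- libraries (right), with all 12 libraries, without WT-NCD replicate 3, and on rescaled protein-coding genes without that library. Cd5l, Vsig4 and Clec4f have the highest values in both panels, and with all libraries Adgre1 and Adgre4 have the lowest values in the right panel.

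The share of each gene in the summed TPM of the 10 does not depend on how the rest of a library was scaled. The sum was 63.6 to 75.5 TPM in WT-NCD, 236 to 661 in WT-HFD, 44.7 to 278 in Casp11-/- NCD and 233 to 375 in Casp11-/- HFD. On NCD a different gene led in each library of a group. In WT-NCD replicates 1 to 3 these were Clec1b (21.0%), Adgre1 (38.3%) and Cxcl13 (15.2%), and in Casp11-/- NCD they were Adgre1 (36.6%), Clec1b (21.9%) and Adgre4 (61.7%). The Cxcl13 lead is that of WT-NCD replicate 3, the library that stood apart, and is not read as a trait of the group. On HFD Cd5l led in all 3 WT libraries, with 30.0% ± 1.78 against 19.2% ± 2.70 for Vsig4 (SD, n = 3 each). In Casp11-/- HFD the shares of Cd5l and Vsig4, 23.0% ± 1.14 and 21.7% ± 3.69 (SD, n = 3 each), differed by less than their spread. The share of Adgre1 on HFD was 9.84% ± 1.94 in WT and 8.76% ± 1.61 in Casp11-/- libraries, and that of Adgre4 was 9.67% ± 3.97 and 7.05% ± 0.954 (SD, n = 3 each).

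Within HFD, the Cd5l share was 28.2% to 31.8% in WT and 21.7% to 23.7% in Casp11-/- libraries, and the Cxcl13 share was 2.39% to 3.36% and 1.42% to 1.73%. The Clec1b share was 4.06% to 6.03% in WT and 8.43% to 9.99% in Casp11-/- libraries. The groups did not overlap for these 3 of the 10 genes, against 14.1% of all genes when their TPM was divided by the same sum, and the 3 were picked after their values were seen. No test was made of the shares, which sum to 100 and so move against each other.

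**Figure D3:**
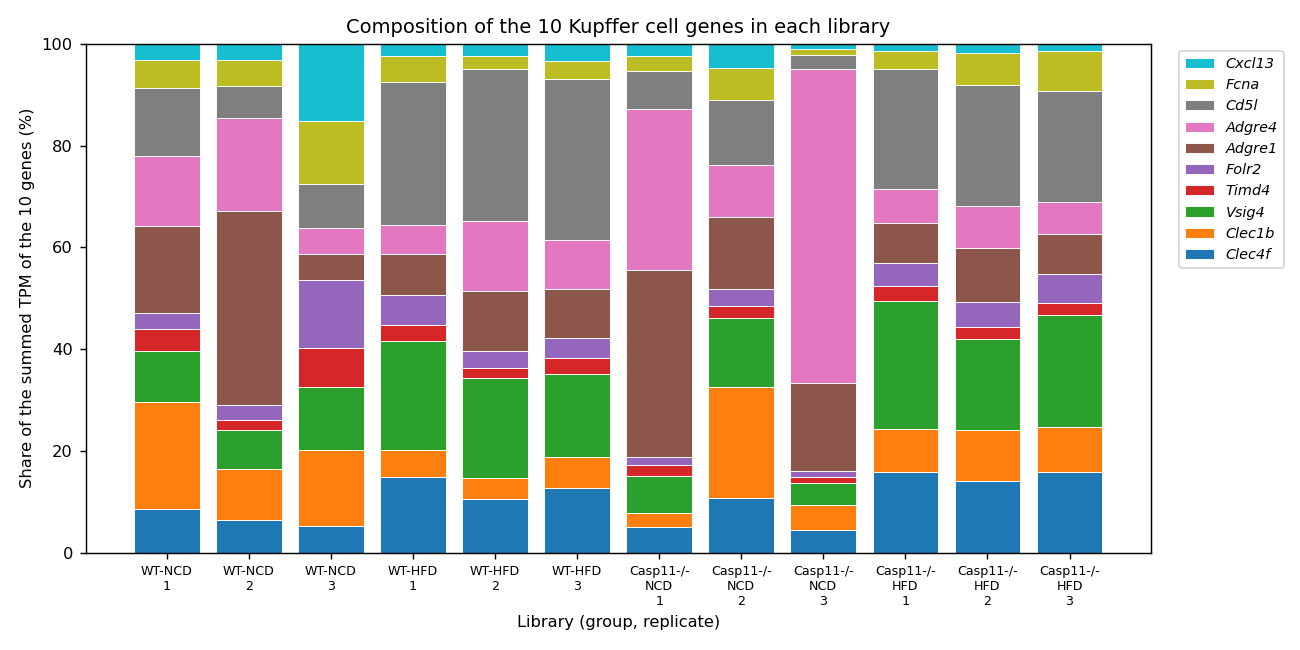
Share (%) of each of the 10 genes in their summed TPM, as 1 stacked bar for each of the 12 libraries. Cd5l and Vsig4 together fill a large part of every HFD bar, and the Adgre1 and Adgre4 segments vary most among the NCD bars.

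Genotype was then compared within each diet, to ask whether loss of caspase-11 went with another level of these genes. This contrast was not used to choose them, although the libraries are the same. On HFD 8 of 10 genes were lower in the libraries labelled Casp11-/-, with a median log2 difference of -0.52 against -0.02 for all genes, but 0 of 10 passed an adjusted p of 0.05 in limma, as did 0% of all genes tested, and 0 of 10 had an unadjusted p under 0.05, against 0.154% of all genes. The lower genes, by size, were Cxcl13 at -1.25 (SE 0.603), Cd5l at -0.98 (SE 0.446), Adgre4 at -0.95 (SE 0.966), Adgre1 at -0.75 (SE 0.753), Timd4 at -0.62 (SE 0.604), Vsig4 at -0.43 (SE 0.494), Folr2 at -0.36 (SE 0.665) and Clec4f at -0.32 (SE 0.553). Clec1b was at 0.22 (SE 0.637) and Fcna at 0.05 (SE 0.629). Without Casp11-/- HFD replicate 2 the median was -0.32, Cxcl13 was at -1.20 and Cd5l at -0.85, Vsig4 was at -0.15 and Clec4f at -0.12. Again 0 of 10 passed in limma at an adjusted or an unadjusted p of 0.05, against 0 and 22 of all 19442 genes tested. Every Casp11-/- HFD library lay below every WT-HFD library for Cxcl13 and Adgre4, 2 of 10, against 2.87% of all genes.

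The unadjusted limma p of Cxcl13 within HFD was 0.0628 and that of Cd5l 0.0514, both with an adjusted p of 1. Without WT-NCD replicate 3, which enters only through the shared spread, 2 of 10 genes had an unadjusted p under 0.05 in limma (Cxcl13 0.0147, Cd5l 0.0495), against 0.752% of all genes, and adjusted p stayed at 1 for both. On rescaled protein-coding genes without that library the differences were -1.29 (SE 0.264, limma unadjusted p = 0.000358) for Cxcl13 and -1.01 (SE 0.315, limma unadjusted p = 0.00743) for Cd5l, again with adjusted p of 1, and 2.94% of all genes had an unadjusted p under 0.05. Over all alternatives the adjusted p of Cxcl13 was 0.623 to 1. The Cd5l difference stayed between -1.41 and -0.72 and that of Cxcl13 between -1.72 and -0.97 when single libraries were omitted.

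On NCD the libraries labelled Casp11-/- had higher levels of 5 of the 10 genes and lower levels of 5, with a median of -0.19 against 0.04 for all genes. None of the 10 passed in limma, with 0 of 10 at an adjusted p under 0.05 (0% of all genes) and 0 of 10 at an unadjusted p under 0.05 (1.50% of all genes). Adgre4 had the largest value, 1.77 (SE 0.966, limma adjusted p = 0.553), which was 0.50 without Casp11-/- NCD replicate 3. The groups overlapped for all 10 genes, against 1.21% of all genes higher without overlap and 1.27% lower. Clec4f, Vsig4 and Cd5l were within 0.38 of zero on the log2 scale, with SE of 0.446 to 0.553.

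The interaction term asks whether the diet difference itself differed between genotypes. It is the difference between the 2 diet differences that were known when the genes were proposed. Its signs and p-values are therefore a description and no independent test. The term was negative for 7 of 10 genes. It was largest for Adgre4 at -2.72 (SE 1.37, limma adjusted p = 0.780) and Adgre1 at -1.67 (SE 1.06, limma adjusted p = 0.780), and Cd5l was at -1.01 (SE 0.631). No gene of the 10 passed, as for all genes (0% at an adjusted p under 0.05 in limma), and 0 of 10 had an unadjusted p under 0.05 against 0.790% of all genes. Without WT-NCD replicate 3 the unadjusted limma p of Adgre4 was 0.0444 with an adjusted p that rounds to 1, and 2.60% of all genes had an unadjusted p under 0.05. Different diet effects in the 2 genotypes were therefore not shown for any of these genes.

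**Figure D4:**
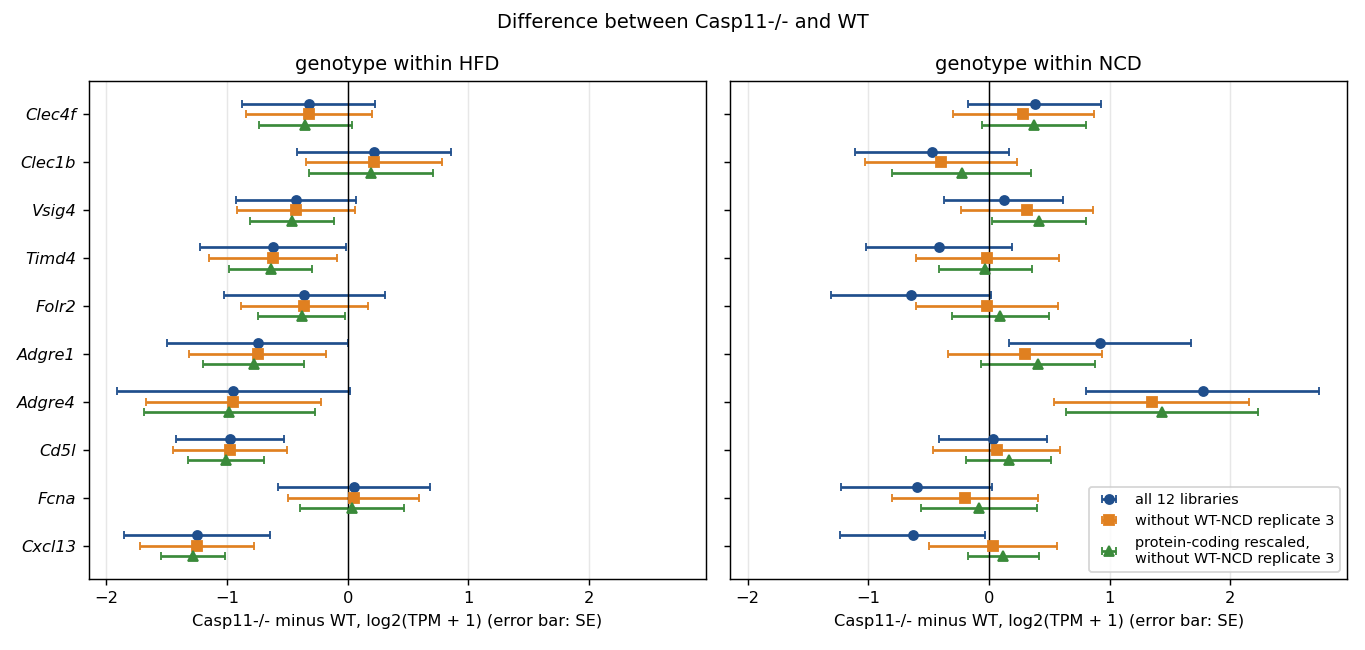
Difference between Casp11-/- and WT in log2(TPM + 1) for each gene (error bars: SE), within HFD (left) and within NCD (right), under the same 3 settings as the plot of diet differences. Within HFD Cxcl13 lies at -1.25 and Cd5l at -0.98 with all libraries, and within NCD the largest value is that of Adgre4 with a wide error bar.

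Partners and paralogs of the 10 genes were taken from a list written for this comparison. Earlier results of these data were known when it was written, so the diet calls are a description. Cxcr5, the receptor of Cxcl13, had 87.8, 70.4 and 5.04 TPM on NCD and 20.0, 10.8 and 29.1 TPM on HFD in WT mice, and 153, 29.9 and 162 TPM in Casp11-/- NCD and 14.4, 11.6 and 21.6 TPM in Casp11-/- HFD. Receptor and ligand thus lay on opposite sides, with Cxcr5 lower and Cxcl13 higher on HFD in both genotypes outside WT-NCD replicate 3. All 7 listed B cell genes were lower on HFD in both genotypes as well. A relation between the levels of Cxcr5 and Cxcl13 was not tested. In Casp11-/- libraries the Cxcr5 difference of -2.49 had a limma adjusted p of 0.538 with all libraries and 0.0280 without WT-NCD replicate 3, where 0.986% of all genes were called lower. In WT it was -0.79 with all libraries and -2.03 without that library (limma adjusted p = 0.109).

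Cd36, a fatty acid and lipoprotein receptor that CD5L uses to enter cells, was higher on HFD by 2.36 (SE 0.651, limma adjusted p = 0.330) in WT and by 2.01 (SE 0.651, limma adjusted p = 0.538) in Casp11-/- libraries. Slc19a1, the reduced folate carrier, was at -0.92 in WT and -1.13 in Casp11-/- libraries. Clec1a, a paralog of Clec1b, was at 1.39 in WT, and Timd2, a paralog of Timd4, was at 1.16 in Casp11-/- libraries. With all libraries 0 of 13 tested partners and paralogs passed in either diet comparison in limma, and 3 of 13 in WT and 4 of 13 in Casp11-/- libraries had an unadjusted p under 0.05, against 6.96% and 8.48% of all genes. The paralogs Fcnb and Folr1 and the CLEC-2 ligand gene Pdpn were at or near the floor in the 11 libraries.

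Other Kupffer cell genes and the markers of other cells were counted in the same fits. These lists were chosen with earlier results of the same libraries known, so their diet calls are a description. With all 12 libraries 0 of 116 listed genes passed an adjusted p of 0.05 in limma in either diet comparison, against 0.113% of all genes in WT and 0% in Casp11-/- libraries. An unadjusted limma p under 0.05 was found for 19 and 18 of them, against 6.96% and 8.48% of all genes. The median log2 difference between diets in WT was 1.38 for 17 other Kupffer cell genes and 1.30 for 17 pan-macrophage genes, and in Casp11-/- libraries it was 0.49 and 0.17. It was 1.64 and 2.02 for 12 sinusoidal endothelial genes, and -1.09 and -2.17 for 7 B cell genes. Several WT medians moved without WT-NCD replicate 3, to 0.27 for the pan-macrophage genes, 0.52 for the endothelial genes and -2.34 for the B cell genes, while that of the other Kupffer cell genes was 1.20. The WT median turned from 0.49 to -1.30 for 10 monocyte genes and from 1.28 to -0.59 for 9 hepatocyte genes.

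Without WT-NCD replicate 3 limma called 9 of 115 listed genes in WT, against 2.18% of all genes, and 8 of 115 in Casp11-/- libraries, against 1.10%. Higher in WT-HFD were the iron exporter gene Slc40a1 at 2.58, the scavenger receptor gene Marco at 1.48 and the complement genes C1qa at 2.47, C1qb at 2.29 and C1qc at 2.27. Lower in WT-HFD were the B cell genes Cd79a at -2.92, Cd79b at -2.88 and Fcer2a at -2.41, and the granzyme gene Gzma at -2.44. In Casp11-/- HFD C1qb at 2.12, C1qc at 2.10 and the endothelial gene Lyve1 at 2.63 were higher, while Cd79a, Cd79b, Fcer2a, Pax5 and Cxcr5 were lower by 2.17 to 2.49. None of the 115 passed between genotypes (0 within HFD, against 0% of all genes, and 0 within NCD, against 0.0557%, with 4 and 1 at an unadjusted p under 0.05 in limma, against 0.752% and 3.24%). The summed B cell genes were at 1294 and 1176 TPM in the WT-NCD libraries other than replicate 3 and 126 to 275 TPM in WT-HFD, and at 396 to 1510 and 161 to 260 TPM in Casp11-/- NCD and HFD. The part of these other cells' RNA in the levels of the 10 genes was not tested.

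**Figure D5:**
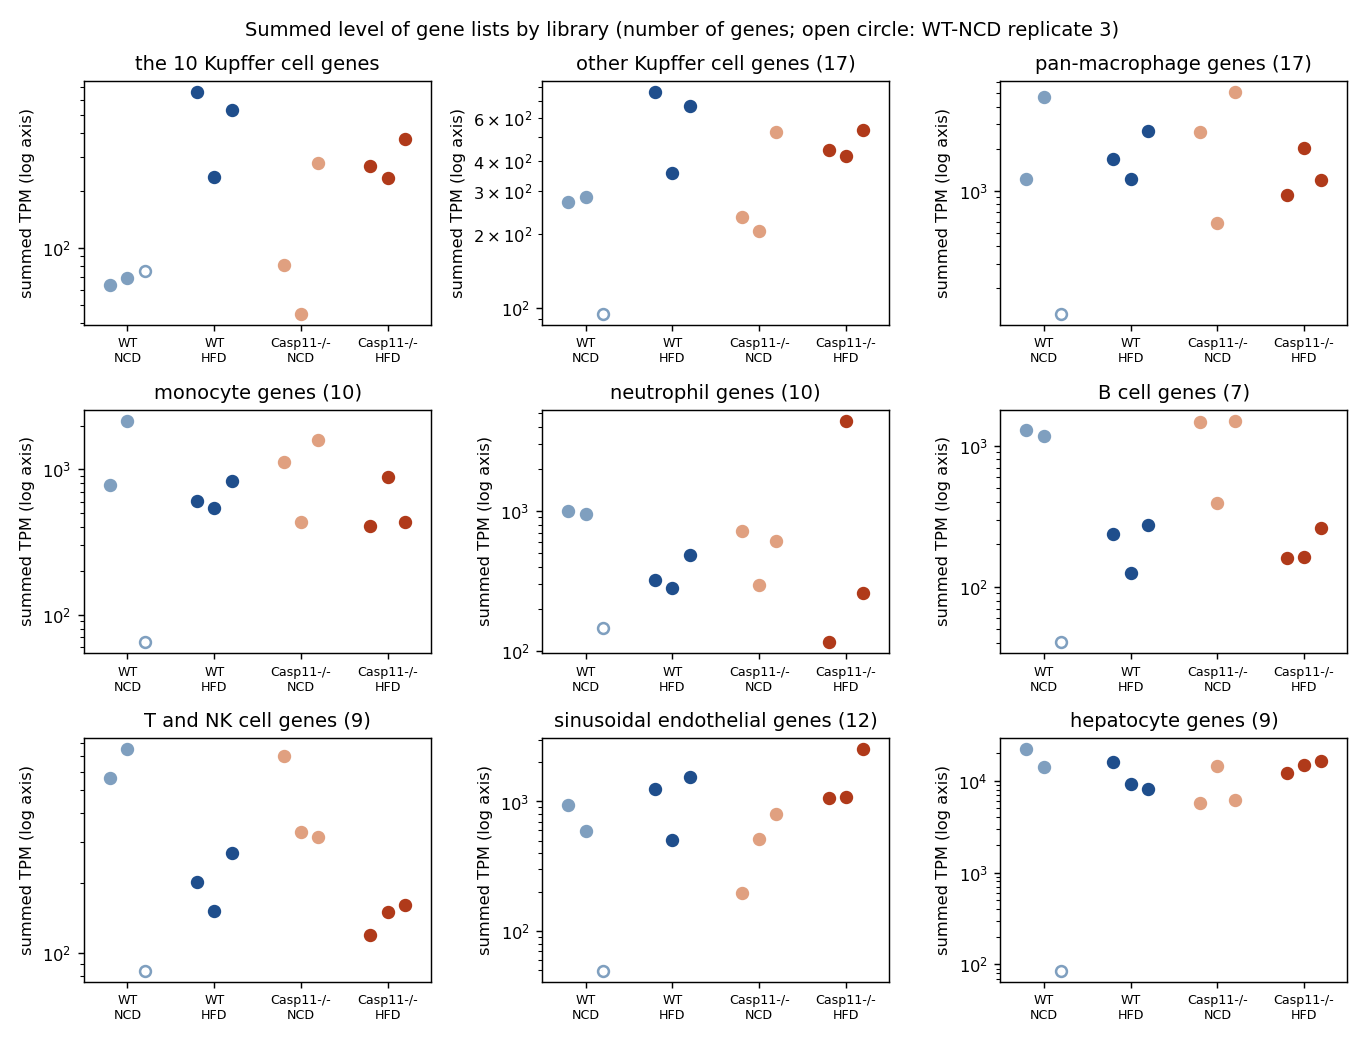
Summed TPM (log axis) of the 10 Kupffer cell genes and of 8 other gene lists, 1 point per library. The 8 lists hold other Kupffer cell genes, pan-macrophage genes and genes of other cells. The Kupffer cell panels are higher in the HFD groups apart from Casp11-/- NCD replicate 3, which lies among the HFD points, the B cell and T and NK cell panels are lower there outside WT-NCD replicate 3, and Casp11-/- HFD replicate 2 stands out in the neutrophil panel at 4410 TPM.

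The genes whose pattern was most like the mean of the 10 were led by the complement C1q genes. Over 11 libraries and 12355 protein-coding genes outside the 10, Pearson r with that mean was 0.99 for C1qa, 0.98 for C1qc and C1qb, 0.98 for Ifit3b, 0.97 for Cd163 and Fabp7 and 0.94 for Sema3d and Slc40a1. The mean TPM of C1qa was 9.36 in the first and second WT-NCD libraries, 63.9 in WT-HFD, 10.4 in Casp11-/- NCD and 39.3 in Casp11-/- HFD, and Cd163, a haemoglobin scavenger receptor gene of macrophages, was at 1.21, 6.40, 1.22 and 5.42. C1qa, C1qb, C1qc and Cd163 were among the first 8 in all 4 ways of ranking, and the other 4 were not. The libraries share diet groups, so a high r says only that a gene followed the same pattern across them.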

How the data were processed

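Total RNA of the liver immune cell fraction was made into random-primed stranded libraries by the authors, aligned to mm10 (GRCm38.p6) with STAR per the submitters' processing notes, and expressed as TPM in Qlucore Omics Explorer. The deposited values are TPM scores raised to a floor of 1.01, a step the sources used here do not describe. The methods name 1 read number for all samples, and the files give no counts, so the depth reached in each library is unknown. Libraries were compared with limma 3.58.1 (R 4.3.3, trend) on log2(TPM + 1), over genes exceeding that floor in 3 or more libraries, with Benjamini-Hochberg adjustment over all genes tested and two-sided tests. The 10 genes and all lists were chosen with earlier results of these data known, and 1 listed gene is not reported here. Named genes are the 10, Casp4, partners and paralogs, called list genes, and the 8 genes most like the 10. Promoters came from RefSeq on GRCm38.p6, which held 9 of the 10 genes (not Adgre1). Replicate numbers were not used to pair the samples, except in the alternative with a replicate block. Alternatives left out each library in turn, rescaled protein-coding genes (alone, or without WT-NCD replicate 3), removed the top 1% of genes, and changed the pseudocount to 0.1, the filter, the spread or the block. Tested on simulated data for the genotype comparison within HFD, the fit recovered 13% of genes changed by 2 and 61% by 4 on the log2 scale over 19498 genes, and 64% and 98% over 17950 genes without WT-NCD replicate 3. Nothing says that replicates were prepared separately beyond being separate mice, so p-values measure the spread between these libraries. Python 3.11.15, pandas 2.3.3, numpy 2.4.6 and matplotlib 3.10.9 were used.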

Additional observations from a re-analysis of the deposited data

How the results depend on the processing

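In simulated data for the genotype comparison on HFD, a change of 2 on the log2 scale was called for 13% of genes with all libraries and 64% without WT-NCD replicate 3. The 10 genes had 0 calls between genotypes and in the interaction under every alternative run, leaving out each library included (0 to 0). Calls were rare over all genes too, with at most 15 of 15842, on HFD with a spread from the groups compared. The median difference between diets was 1.67 to 2.36 in WT and 1.65 to 2.22 in Casp11-/- libraries with each library left out, and 2.86 in WT without the top 1% of genes. The median between genotypes was -0.99 to -0.15 on HFD and -0.46 to 0.13 on NCD with each library left out.

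Counts of listed genes called depended on WT-NCD replicate 3. In WT the count was 0 with all libraries, 0 to 9 with each library left out, 3 on rescaled protein-coding genes, 13 on these without WT-NCD replicate 3, and 1 without the top 1% of genes. In Casp11-/- libraries it was 0 to 8 with each library left out, 26 on rescaled genes without WT-NCD replicate 3, and 13 with a spread from the groups compared, which gave 1 between genotypes on HFD. Among all genes, the WT calls were 12 of 11448 on rescaled genes, 99 of 11243 on these without WT-NCD replicate 3, and 13 of 15788 without the top 1%. The Casp11-/- calls were 395 of 11243 on rescaled genes without WT-NCD replicate 3 and 300 of 14954 with a spread from the groups compared. That spread gave 15 of 15842 between genotypes on HFD. Over all genes tested, 22 were called between diets in WT, 391 without WT-NCD replicate 3 and 0 with the replicate block. In Casp11-/- libraries these counts were 0, 198 and 0. Of 18 same-numbered pairs of libraries, 7 had a correlation of deviations over 0.1 (r from -0.64 to 0.47). Without WT-NCD replicate 3 it was 8 of 15 (r from -0.33 to 0.47). Differently numbered pairs were not compared, so a pairing is neither shown nor excluded. With the block, 0 of the 10 genes passed between genotypes, as did 0 of all 19498 genes tested.

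Of the first 8 genes most like the 10, those found again were 4 with all 12 libraries, 5 on rescaled genes and 5 by rank correlation.

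Small genotype differences changed sign. On HFD, with each library left out, Clec4f was -0.88 to 0.089, Clec1b -0.35 to 0.53, Folr2 -0.94 to 0.14 and Fcna -0.57 to 0.57. On NCD, likewise, Clec4f was -0.048 to 0.65, Clec1b -0.92 to 0.19, Vsig4 -0.16 to 0.32, Cd5l -0.19 to 0.23 and Cxcl13 -0.99 to 0.034. Without the top 1% of genes, the NCD values were 0.17 for Clec1b, 0.073 for Folr2, 0.0064 for Fcna and 0.076 for Cxcl13. On rescaled genes they were -0.17 for Vsig4 and -0.24 for Cd5l, and without WT-NCD replicate 3 as well 0.093 for Folr2 and 0.12 for Cxcl13. The interaction of Timd4 was -0.80 to 0.17 with each library left out and 0.028 on rescaled genes. That of Folr2 was -0.34 to 0.78 with each library left out, -0.48 on rescaled genes without WT-NCD replicate 3 and -0.42 without the top 1% of genes. In WT between diets, Cxcr5 was 0.13 without the top 1% of genes. The cause of these changes was not tested.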

Other observations

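WT-NCD replicate 3 held several genes that were at or near the floor elsewhere. Fcnb was at 6.81 TPM there and Folr1 at 8.19 TPM, and both were at the floor of 1.01 TPM in the other 11 libraries. Pdpn, which encodes podoplanin, was at 7.24 TPM there and at most 1.18 TPM elsewhere. Casp11-/- HFD replicate 2 had 2414 TPM of S100a8, a neutrophil gene, against 62.8 and 131 TPM in the other two libraries of its group. Among the 6 HFD libraries it had the lowest Vsig4 (41.6 TPM) and Cd5l (55.3 TPM), and for the other 8 Kupffer cell genes it was neither the lowest nor the highest.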
